A study of Mus musculus with 8 samples.

Results

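The comparison described here asks whether loss of Mcl1 had the same effect on RNA levels in the medullary as in the cortical epithelium of the mouse thymus. For each gene, the change from wild-type (WT) to Mcl1 knock-out (KO) in cortical thymic epithelial cells (cTECs) was subtracted from the same change in medullary thymic epithelial cells (mTECs), on the log2 scale. A positive difference means that the gene held up better, or gained more, in KO mTECs than in KO cTECs, and a negative one means the reverse. The members are the libraries of the 4 groups given by the sample titles, and all 8 libraries of the study entered: 4 of WT cTECs, 1 of KO cTECs, 2 of WT mTECs and 1 of KO mTECs. Mice were of the C57BL/6 strain, and the genotypes are labelled wild-type and Mcl1 knock-out. The labels give neither the Cre driver or allele, nor the deleted stretch of Mcl1, nor the age of the mice, nor how many animals went into a library. The submitters call the libraries biological replicates. Each KO group is 1 library, so the spread used in every test came from the WT libraries, and a KO library was assumed to vary as they do.

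MCL-1 is a pro-survival member of the BCL-2 family that holds back the mitochondrial pathway of apoptosis, and it is a short-lived protein. cTECs present the self-peptides on which thymocytes are positively selected. mTECs express antigens of other tissues under the regulators Aire and Fezf2, and the medulla also holds cells that mimic peripheral cell types, among them tuft cells, which carry the signalling chain of taste cells.

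Counts per library summed to between 11516780 in KO mTEC and 19171953 in WT mTEC 1, and between 17800 genes in KO cTEC and 22708 in WT mTEC 2 had at least 1 count. Levels are given below as CPM, counts scaled to a common library size after adjustment for library composition. Of the genes that define the populations, Psmb11 was higher in WT cTECs and Aire in WT mTECs. Psmb11, the proteasome subunit particular to cTECs, ranged from 146 to 399 CPM in the WT cTEC libraries, and was 12.8 and 10.1 CPM in WT mTECs. Aire was 338 and 554 CPM in WT mTECs, but the WT cTEC libraries also held it, at 116, 46.0, 28.9 and 78.0 CPM. Between the WT populations, 9 of 19 mature mTEC genes were called higher in mTECs and 1 lower. Other medullary genes went the other way. Of 15 immature and junctional mTEC genes 8 were called lower in WT mTECs than in WT cTECs, as were 9 of 23 tuft identity genes, with 0 higher in either list. Over all 18163 genes tested, 2393 were called higher in WT mTECs than in WT cTECs and 2519 lower. Genes of immediate-early response set WT cTEC 1 apart from the rest of its group, with Fos at 516 CPM against 6156, 4421 and 4921 CPM in WT cTEC 2 to 4.

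Of 18163 genes tested, 1236 differed in their KO effect between the populations (6.81% of the genes tested, edgeR's quasi-likelihood test, adjusted p under 0.05). The difference was positive in 1119 (6.16%) and negative in 117 (0.644%), while the median over all genes tested was 0.09. Within single populations, 3179 genes changed in KO cTECs (17.5%), and 0 genes were called in KO mTECs (0.0%) by edgeR, or 7 without WT cTEC 1. In mTECs 1502 genes had an unadjusted p under 0.05, DESeq2 called 139 genes there, and both limma tests called 0. The populations themselves differed in 4912 genes in WT (27.0%) and 4679 in KO (25.8%). The count for the difference in KO effect moved with single libraries. Leaving out WT mTEC 1 gave 649 genes, leaving out WT mTEC 2 gave 668, and leaving out WT cTEC 1 gave 1849. limma-voom called 117 genes.

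**Figure D1:**
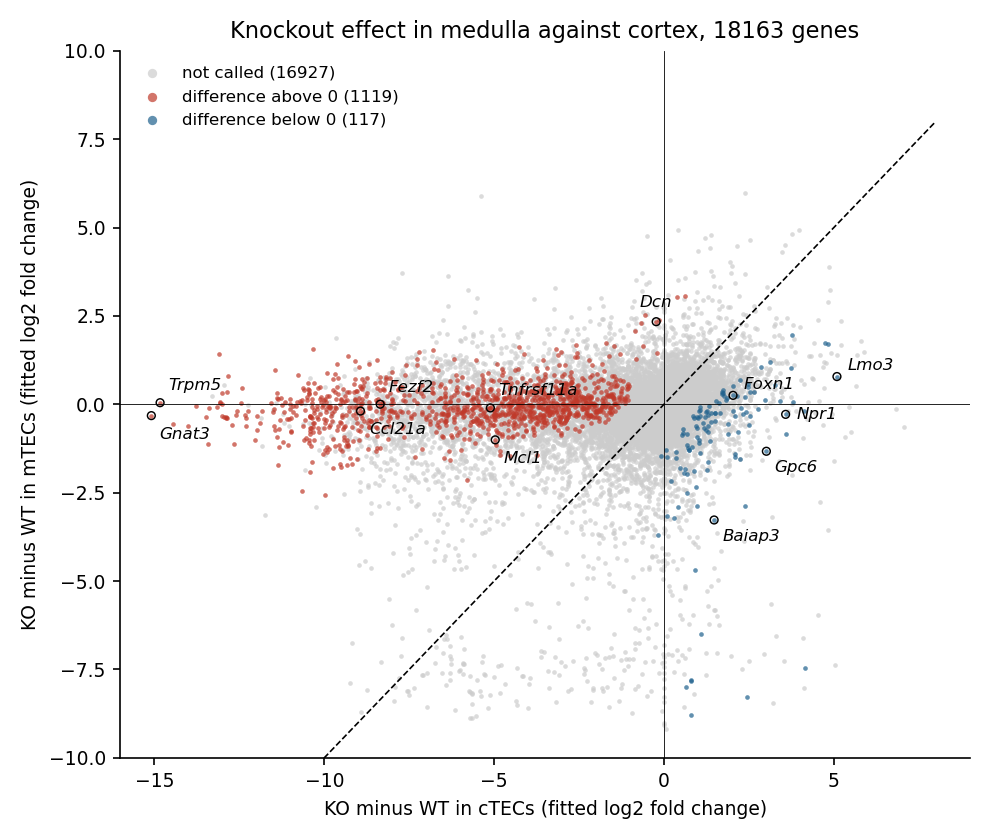
Each point is a gene, with its fitted KO effect in cTECs (log2 of KO over WT) on the horizontal axis and that in mTECs on the vertical axis, and genes called for the difference are coloured by its direction. The 1119 genes with a positive difference lie mostly to the left, near an mTEC effect of 0, and genes at 0 counts in KO cTEC sit at fitted extremes that are not measured folds.

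Among the 1119 genes with a positive difference the larger effect was that in cTECs for 1106. The median effect of these genes was -4.90 in cTECs and -0.06 in mTECs, and 1014 of them (90.62%) had an mTEC effect smaller than 1 in size, near the share among all genes tested (15260, 84.02%). Their median level was 22.6 CPM in WT cTECs, 0.771 CPM in KO cTEC, 35.8 CPM in WT mTECs and 35.8 CPM in KO mTEC. A total of 291 (26.0%) had no count in KO cTEC, against 1991 (10.96%) of all genes tested. Read the other way round, the median distance between mTECs and cTECs for these genes was 0.61 in WT and 5.66 in KO.

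Of the 117 genes with a negative difference, the cTEC effect was the larger in 76 and the mTEC effect in 41, close to the split over all genes tested (12226 and 5937). Their median effect was 1.34 in cTECs and -0.56 in mTECs. Their median gene length was 3606 bases, against 2337 bases for genes with a positive difference and 2592 bases for all genes tested. This smaller group also depended more on single libraries, with 27 genes called when WT mTEC 1 was left out and 36 when WT mTEC 2 was. The counts were 61, 60 and 248 when WT cTEC 2, 3 and 1 were left out, respectively.

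Mcl1 itself (Entrez 17210, chr3:95656944-95663179, GRCm38.p6, the build also known as mm10) differed in its KO effect. It was at 228, 302, 259 and 241 CPM in WT cTECs and at 8.23 CPM in KO cTEC. In mTECs it was at 113 and 203 CPM in WT and at 78.7 CPM in KO, a level that lay below both WT libraries but close to the lower one. The KO library thus held 3.19% of the WT mean in cTECs (257.5 ± 32.3 CPM, SD, n = 4) and 49.8% in mTECs (158.1 ± 64.2 CPM, SD, n = 2). The difference of the effects was 3.96 ± 0.50 (SE) on the log2 scale (adjusted p = 0.00277), and between 3.59 and 4.45 with each WT library left out in turn. Counts are per gene, and because the deleted stretch is not given, a read from an undeleted exon of the targeted allele cannot be told apart from one of an intact allele.

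Other pro-survival members of the family were measured beside Mcl1, and 4 of 7 tested, Mcl1 included, had a positive difference, of which limma-voom called 1. The share called was 57.14%, against 6.81% of all genes tested. The other members called were Bcl2a1a, Bcl2a1b and Bcl2a1d, the copies of the gene for the pro-survival protein A1. Bcl2a1b was at 45.3, 39.5, 35.8 and 49.6 CPM in WT cTECs, without a count in KO cTEC, at 129 and 132 CPM in WT mTECs and at 179 CPM in KO mTEC. With the 0 set to 3 counts, its KO-to-WT ratio was at least 302-fold higher in mTECs than in cTECs (adjusted p = 0.000154). These copies are near-identical, so reads may have been split between them and the level of a single copy is uncertain. Bcl2 (difference -0.71 ± 0.50, adjusted p = 0.497) and Bcl2l1, which encodes BCL-XL (0.21 ± 0.43, adjusted p = 0.851), did not pass the test.

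Of 11 genes of the pro-death side of the family, 2 had a positive difference, Pmaip1 and Bik. The share called was 18.18%, against 6.81% of all genes tested. Pmaip1 encodes NOXA, the BH3-only protein that binds MCL-1. It was at 105, 147, 98.0 and 104 CPM in WT cTECs and at 1.03 CPM in KO cTEC, and at 178 and 105 CPM in WT mTECs and 284 CPM in KO mTEC, so that the KO library lay below the WT range in one population and above it in the other. The difference was 7.78 ± 0.62 (adjusted p = 0.00048). Bik, another BH3-only gene, had a difference of 5.07 ± 0.59 (adjusted p = 0.00177).

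Tuft cell genes were called in most members of both lists that hold them. Of 12 genes of taste transduction, 8 had a positive and 0 a negative difference (66.67% called). Of 23 genes of tuft cell identity and effector function, 20 had a positive and 0 a negative one (86.96% called), against 6.16% positive and 0.644% negative among all genes tested. The median difference was 7.97 and 6.63, or 6.72 and 5.87 with genes at 0 in KO cTEC set to 3 counts, against 0.09 and 0.08 over all genes tested. limma-voom called 0 and 3 of them, and leaving out 1 library gave 6 to 9 and 17 to 20.

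Gnat3 (Entrez 242851, chr5:17962570-18019668) encodes the alpha subunit of gustducin, the G protein of taste and tuft cells. It was at 214, 328, 277 and 271 CPM in WT cTECs and had no count in KO cTEC. In mTECs it was at 171 and 171 CPM in WT and 137 CPM in KO. Its KO-to-WT ratio was at least 1132-fold higher in mTECs than in cTECs when the 0 was set to 3 counts (adjusted p = 0.000154).

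The next steps of the chain had the same pattern of levels. Trpm5, the cation channel that depolarises taste and tuft cells, was at 199, 286, 153 and 273 CPM in WT cTECs, at 0 in KO cTEC, at 67.6 and 80.3 CPM in WT mTECs and at 76.3 CPM in KO mTEC. The bound on its difference was at least 1220-fold (adjusted p = 0.000342). Rgs13, a regulator that shortens G protein signals, was at 263, 144, 117 and 178 CPM, then 0, then 136 and 154 CPM, and 98.3 CPM in the same order of groups (at least 616-fold, adjusted p = 0.000745).

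The further members of the lists named in this and the next paragraph were picked after their values were seen. Plcb2, the phospholipase C of taste cells, kept 1 count in KO cTEC against a WT mean that was 1719-fold higher (95% counting interval 309 to 67925). Its difference passed the test (adjusted p = 0.000789). The G protein subunit gene Gnb3 had a difference of 7.46 ± 0.91 (adjusted p = 0.00233). Gng13, another subunit gene, also kept 1 count in KO cTEC, against a WT mean 750-fold higher (135 to 29623, adjusted p of the difference = 0.0146). Of the 4 genes of the taste list that did not pass, the taste receptor subunits Tas1r1 and Tas1r3 had differences of 3.84 ± 1.01 (adjusted p = 0.0631) and 2.93 ± 0.85 (adjusted p = 0.0872). Itpr3 and Pde6d, which are expressed well beyond tuft cells, had differences of -0.17 ± 0.56 (adjusted p = 0.919) and 0.03 ± 0.32 (adjusted p = 0.981).

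Pou2f3, the POU domain factor required for tuft cells, kept 29.96% of its WT mean in KO cTEC. It was at 68.2, 83.3, 54.8 and 85.4 CPM in WT cTECs and 21.9 CPM in KO cTEC, and at 70.3 and 66.5 CPM in WT mTECs and 65.0 CPM in KO mTEC. Its difference was 1.66 ± 0.40 (adjusted p = 0.0458), a call that ended with WT cTEC 2 left out (0.0778), as it did for WT cTEC 4 (0.0609), WT mTEC 1 (0.133) and WT mTEC 2 (0.150, all adjusted p). Hepacam2 was at 132, 130, 120 and 132 CPM in WT cTECs, at 0 in KO cTEC, at 117 and 145 CPM in WT mTECs and at 86.4 CPM in KO mTEC, which gave a bound of at least 440-fold (adjusted p = 0.000154). Lrmp, a membrane protein of the endoplasmic reticulum, and Bmx, a kinase of the TEC family, had differences of 8.62 ± 0.58 (adjusted p = 0.000316) and 8.91 ± 0.57 (adjusted p = 0.000231). Dclk1, the kinase often used to mark tuft cells, differed by 3.6 ± 0.47 (adjusted p = 0.00307).

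POU domain factors bind the octamer ATGCAAAT, so RefSeq promoter windows of the tuft genes (250 bases before to 50 bases after a start, GRCm38.p6) were searched for it on both strands. The motif was chosen after the results were seen, and a shorter and a variant form had been looked at first. A window was at hand for 28 of the 35 tuft genes tested. The octamer stood in 3 of their 30 windows (10%), those of Rgs21, Hpgds and Itpr3, and in 1.74% of all 32851 windows of that length and 1.47% of the 17168 windows of tested genes. Among windows of the tuft genes called, 2 of 24 held it (8.33%). Itpr3 did not pass the test above, so a match did not go with a difference in each case. Shown here are the windows of Gnat3, one of the taste genes with no match, and of Rgs21 and Hpgds, called genes with a match, as printed 5′ to 3′ on the gene's strand with the octamer in capitals.
Gnat3, chr5:17962320-17962619, plus strand: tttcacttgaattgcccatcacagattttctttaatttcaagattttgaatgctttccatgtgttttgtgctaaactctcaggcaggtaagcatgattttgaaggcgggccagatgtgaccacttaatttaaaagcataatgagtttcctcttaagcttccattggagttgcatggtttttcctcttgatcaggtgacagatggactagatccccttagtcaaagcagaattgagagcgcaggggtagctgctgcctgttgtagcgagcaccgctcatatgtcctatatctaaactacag
Rgs21, chr1:144567618-144567917, minus strand: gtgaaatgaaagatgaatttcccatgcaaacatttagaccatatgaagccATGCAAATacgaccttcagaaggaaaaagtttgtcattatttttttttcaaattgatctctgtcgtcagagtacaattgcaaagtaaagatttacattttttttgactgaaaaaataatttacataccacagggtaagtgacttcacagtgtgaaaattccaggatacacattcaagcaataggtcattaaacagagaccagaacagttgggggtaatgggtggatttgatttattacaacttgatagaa
Hpgds, chr6:65144681-65144980, minus strand: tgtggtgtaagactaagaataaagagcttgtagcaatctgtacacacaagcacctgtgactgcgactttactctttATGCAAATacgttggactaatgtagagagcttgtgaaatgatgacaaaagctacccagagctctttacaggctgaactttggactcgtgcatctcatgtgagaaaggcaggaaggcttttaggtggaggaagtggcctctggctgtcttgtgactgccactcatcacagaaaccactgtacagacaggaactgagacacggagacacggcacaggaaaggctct
The octamer began 200 bases before the start of Rgs21, a regulator of G protein signalling in taste cells, and 174 bases before that of Hpgds, the prostaglandin D synthase. Rgs21 was at 2.28, 5.16, 6.68 and 7.08 CPM in WT cTECs, at 0 in KO cTEC, at 2.53 and 1.64 CPM in WT mTECs and at 1.08 CPM in KO mTEC. Its call (adjusted p = 0.0378) was lost when any WT library other than WT cTEC 1 was left out, with an adjusted p of up to 0.102. Hpgds had a difference of 3.85 ± 0.67 (adjusted p = 0.0113). A match is a description of these letters and shows no binding.

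**Figure D2:**
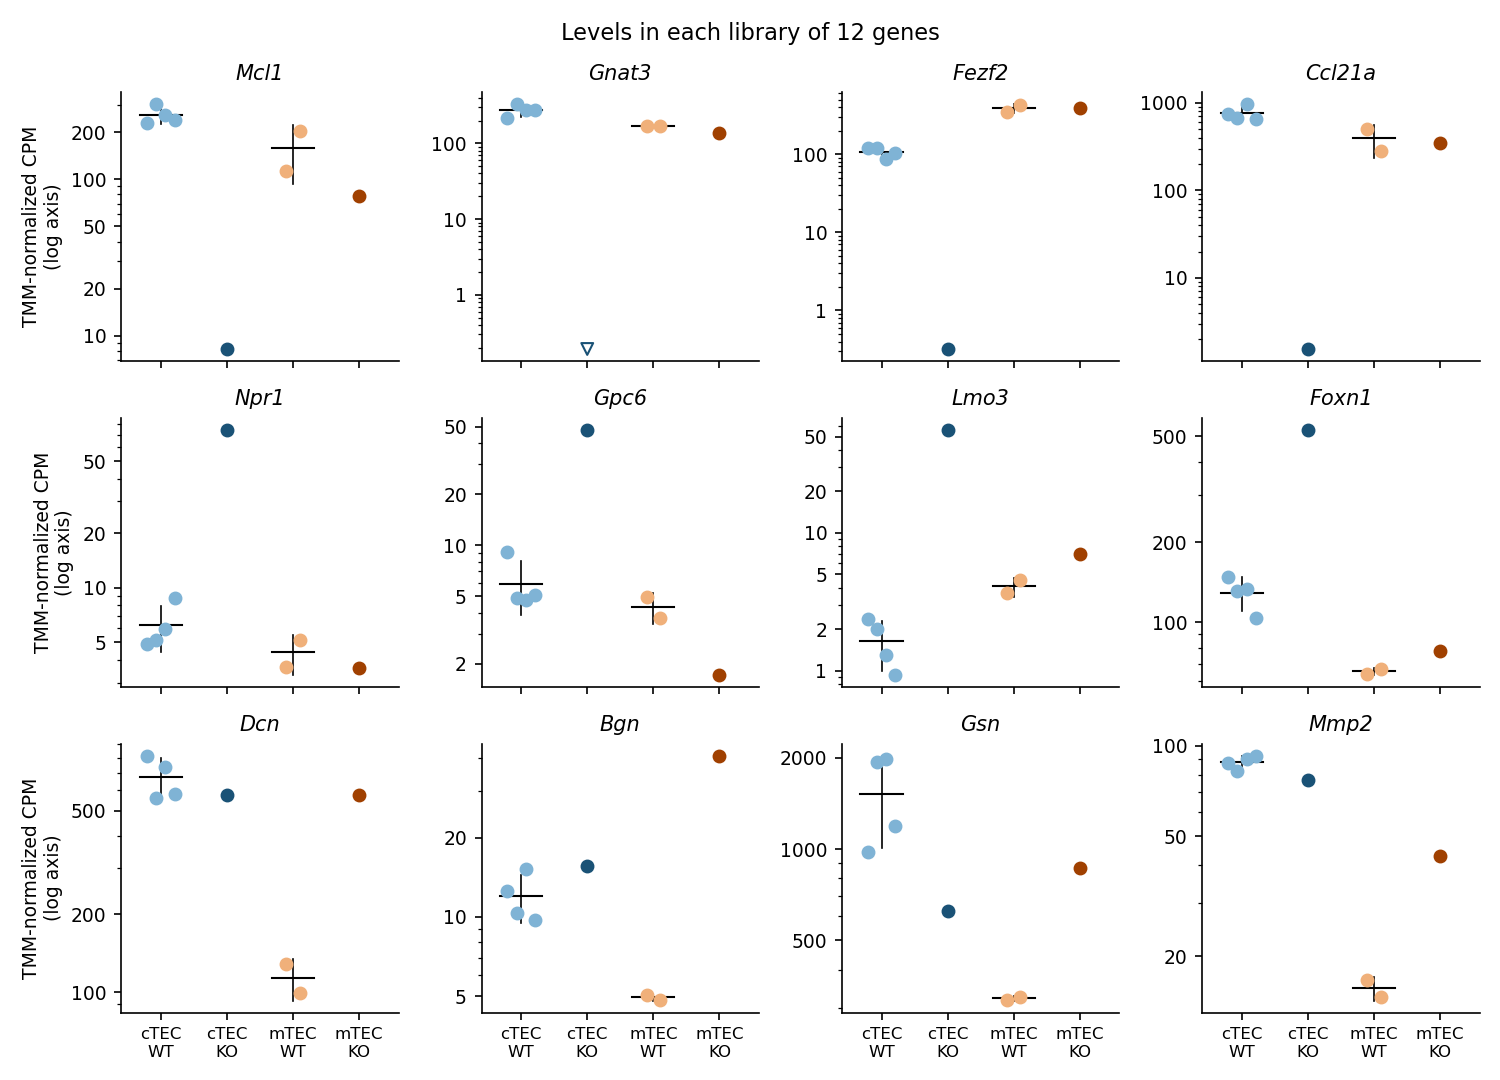
Levels of 12 genes in CPM on log axes, 1 point per library, with bars for the mean ± SD of the WT libraries and an open triangle at 3 counts where a library had none. Mcl1, Fezf2 and Ccl21a are lowest in KO cTEC and Gnat3 had no count there, Npr1, Gpc6, Lmo3 and Foxn1 are highest in KO cTEC, and Dcn, Bgn, Gsn and Mmp2 stand higher in KO mTEC than in both WT mTEC libraries.

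Genes of mature mTECs followed in 7 of 19 members tested (36.84%), with 0 negative and a median difference of 3.83. Over all genes tested, 6.16% had a positive and 0.644% a negative difference. Fezf2, which drives expression of tissue antigens, was at 119, 120, 86.1 and 105 CPM in WT cTECs and 0.321 CPM (5 counts) in KO cTEC, and at 351 and 422 CPM in WT mTECs and 387 CPM in KO mTEC. Its difference was 8.36 ± 0.50 (adjusted p = 0.00019). Tnfrsf11a, the receptor RANK through which mTECs mature, was at 148, 140, 134 and 156 CPM in WT cTECs, 4.18 CPM in KO cTEC, 230 and 240 CPM in WT mTECs and 219 CPM in KO mTEC (difference 5.01 ± 0.31, adjusted p = 0.00019). Tnfrsf11b, which encodes osteoprotegerin, the decoy receptor for the same ligand, differed by 5.09 ± 0.48 (adjusted p = 0.000888).

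Aire was without a count in KO cTEC and at 457 CPM in KO mTEC, between its WT mTEC values. The bound on its difference was at least 357-fold (adjusted p = 0.00895). Cd80, a co-stimulatory ligand, differed by 4.37 ± 0.94 (adjusted p = 0.0289), a call lost without WT cTEC 2 (0.0528), WT mTEC 1 (0.0972) or WT mTEC 2 (0.0865). Cd40, the receptor for CD40 ligand, did not pass at 1.87 ± 0.60 (adjusted p = 0.122). The count for this list was 2 by limma-voom and 5 to 9 with 1 library left out.

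Immature and junctional mTEC genes had a positive difference in 6 of 15 (40%) and a negative one in 0. The shares over all genes tested were 6.16% and 0.644%. In this list 2 were called without WT mTEC 2 and 4 without WT mTEC 1. Ccl21a, the chemokine that draws thymocytes to the medulla, was at 741, 671, 964 and 657 CPM in WT cTECs and 1.54 CPM in KO cTEC, and at 507 and 282 CPM in WT mTECs and 345 CPM in KO mTEC (8.74 ± 0.65, adjusted p = 0.000361). Other members called were Plet1 (2.92 ± 0.41, adjusted p = 0.00417) and the keratin Krt17 (2.09 ± 0.37, adjusted p = 0.0122). Krt17 was at 2098 to 2980 CPM in WT cTECs, 886 CPM in KO cTEC, 2047 and 2034 CPM in WT mTECs and 3173 CPM in KO mTEC, and its call was lost without WT mTEC 1 (0.0590) or WT mTEC 2 (0.0593).

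Genes of the keratinising cells that follow the Aire stage had a positive difference in 6 of 17 (35.29%) and a negative one in 0. The shares over all genes tested were 6.16% and 0.644%. Dsg1a, a desmosomal cadherin, was at 73.1, 80.1, 91.4 and 75.3 CPM in WT cTECs, 0.0643 CPM (1 count) in KO cTEC, 135 and 132 CPM in WT mTECs and 112 CPM in KO mTEC (adjusted p = 0.000154). Its WT cTEC mean was 1244-fold above KO cTEC (95% counting interval 223 to 49162). Sprr1a, a protein of the cornified envelope, differed by 6.58 ± 0.51 (adjusted p = 0.000398).

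Tissue-restricted antigens had a positive difference in 5 of 20 tested (25%) and a negative one in 0, and 15 of the 20 had no count in KO cTEC. Over all genes tested, 6.16% were positive, 0.644% were negative and 10.96% had no count in KO cTEC. Csn2, the milk protein beta-casein, was at 126, 117, 97.5 and 98.6 CPM in WT cTECs, 0 in KO cTEC, 584 and 755 CPM in WT mTECs and 642 CPM in KO mTEC (at least 546-fold, adjusted p = 0.000154). S100a8 (at least 54.9-fold, adjusted p = 0.00621) and the acute-phase protein Crp (adjusted p = 0.00334) were called too. Crp had 3 counts in KO cTEC, and its WT mean there was 165-fold higher (95% counting interval 56.6 to 802). limma-voom called 0 of the antigens and a fit with the replicate block 9.

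The 10 genes of largest positive difference among genes averaging 3 or more in log2 CPM were Trpm5, Gnat3, Chga, Rgs13, Csn2, Chil4, Hepacam2, Spink1, Krt20 and Cdhr5, and none had a count in KO cTEC. The ranking used the fitted difference, which is not a measured fold at 0 counts, so it favours genes like these 10. Chga, the granule protein chromogranin A of neuroendocrine cells, varied most among them in WT cTECs, at 155, 72.4, 20.5 and 29.0 CPM. It was at 78.2 and 93.9 CPM in WT mTECs and 233 CPM in KO mTEC, so the bound was at least 970-fold (adjusted p = 0.0227, but 0.0636 without WT mTEC 1 and 0.0579 without WT mTEC 2). Chil4 is a chitinase-like protein (at least 511-fold, adjusted p = 0.00412), and Krt20 is a keratin of gut epithelium (at least 406-fold, adjusted p = 0.00295). Cdhr5 is a cadherin of the brush border (at least 385-fold, adjusted p = 0.00105). Spink1, a trypsin inhibitor, had a bound of at least 423-fold (adjusted p = 0.0263, but 0.0647 without WT mTEC 1 and 0.0698 without WT mTEC 2).

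These libraries are bulk RNA, in which fewer cells of a type and less RNA per cell cannot be told apart. The summed level of the taste transduction list was 1045 to 1521 CPM in WT cTECs, 107 CPM in KO cTEC, 876 and 956 CPM in WT mTECs and 752 CPM in KO mTEC. The summed level of mature mTEC genes was 14650 CPM in KO cTEC, within the WT cTEC range of 13190 to 19500 CPM. That sum does not show the change of most members, as the median effect of the list in cTECs was -4.08. Of its 19 members 8 were called lower and 0 higher in KO cTECs, against 2252 lower and 927 higher of all 18163 genes tested. Immature and junctional genes summed to 6983 CPM in KO cTEC and 8315 to 11220 CPM in WT cTECs. Whether the sorted cortical fractions held the same mix of cells in WT and KO was not tested.

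cTEC markers had a median difference of -0.16, with 2 positive and 1 negative of 20 (15% called, against 6.81% of all genes tested). Within KO cTECs, 8 of the 20 were called higher and 2 lower, with a median effect of 0.71. Over all 18163 genes tested, 927 were called higher and 2252 lower in KO cTECs. Psmb11 was at 399, 282, 284 and 146 CPM in WT cTECs and 751 CPM in KO cTEC, and at 12.8 and 10.1 CPM in WT mTECs and 26.5 CPM in KO mTEC. The KO library was above the WT range in both populations and the difference did not pass (-0.23 ± 0.66, adjusted p = 0.901). Ackr4, a scavenger receptor for chemokines, was at 146 to 189 CPM in WT cTECs, 776 CPM in KO cTEC, 10.7 and 10.8 CPM in WT mTECs and 27.6 CPM in KO mTEC (-0.88 ± 0.30, adjusted p = 0.150).

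Foxn1 (Entrez 15218, chr11:78357577-78386783), the forkhead factor on which thymic epithelium depends, was the cortical marker with a negative difference. It was at 147, 131, 134 and 104 CPM in WT cTECs and 528 CPM in KO cTEC, 4.09 times the WT mean. In mTECs it was at 64.1 and 66.8 CPM in WT and 78.0 CPM in KO, 1.19 times the WT mean. The difference was -1.78 ± 0.33 (adjusted p = 0.0156), and it missed the threshold without WT mTEC 1 (0.0564) or WT mTEC 2 (0.0607). Tgfb2, a growth factor, differed the other way (2.61 ± 0.42, adjusted p = 0.00804), as did the transcription factor gene Scx (2.35 ± 0.54, adjusted p = 0.0395). The call for Scx was lost when any WT library other than WT cTEC 1 was left out, with an adjusted p of up to 0.130.

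Npr1 and Gpc6 had negative differences, and in both the KO cTEC library stood far above all others. Npr1 (Entrez 18160, chr3:90450591-90465928) encodes the receptor for atrial natriuretic peptide, which makes cyclic GMP. It was at 4.92, 5.16, 5.92 and 8.78 CPM in WT cTECs and 74.4 CPM in KO cTEC, and at 3.63 and 5.18 CPM in WT mTECs and 3.62 CPM in KO mTEC. It rose in KO cTECs by 3.58 ± 0.35 (adjusted p = 0.000463), its mTEC effect was -0.28 ± 0.49 (adjusted p = 0.943), and the difference was -3.87 ± 0.66 (adjusted p = 0.0104).

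Of 20 tested genes of natriuretic peptide and cyclic GMP signalling, 15% were called, against 6.81% of all genes tested. Npr1 had a negative difference and 2 genes had a positive one. Those were the phosphodiesterases Pde9a (adjusted p = 0.00384) and Pde2a (2.62 ± 0.56, adjusted p = 0.0275), which break cyclic nucleotides down. Pde9a was at 26.5, 18.6, 10.9 and 19.6 CPM in WT cTECs, 0.193 CPM (3 counts) in KO cTEC, 34.5 and 35.6 CPM in WT mTECs and 28.7 CPM in KO mTEC. Its WT cTEC mean was 98.1-fold above KO cTEC (95% counting interval 33.6 to 475). The call for Pde2a was lost without WT mTEC 1 (0.0972) or WT mTEC 2 (0.0848). Npr2, the receptor for the C-type peptide, did not pass at 0.86 ± 0.63 (adjusted p = 0.518).

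Gpc6 (Entrez 23888, chr14:116924920-117979529) encodes a glypican, a heparan sulfate proteoglycan held at the cell surface by a lipid anchor. It was at 9.06, 4.87, 4.72 and 5.10 CPM in WT cTECs and 47.9 CPM in KO cTEC, and at 4.95 and 3.70 CPM in WT mTECs and 1.72 CPM (19 counts) in KO mTEC. The KO library lay above the WT range in cTECs and below it in mTECs. The difference was -4.34 ± 0.77 (adjusted p = 0.0126), made of 3.01 ± 0.41 in cTECs (adjusted p = 0.00196) and -1.33 ± 0.59 in mTECs (adjusted p = 0.606).

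Of 21 glypicans and heparan sulfate enzymes tested, 9.52% were called, against 6.81% of all genes tested. limma-voom called 0 of the list and a fit with the replicate block 1. The 2 genes with a negative difference were Gpc6 and Gpc5, and 0 had a positive one. Gpc5 lies on the same chromosome (chr14:115092201-116525192). It was at 6.78, 10.5, 8.42 and 11.4 CPM in WT cTECs, 39.6 CPM in KO cTEC, 1.65 and 1.27 CPM in WT mTECs and 0.542 CPM (6 counts) in KO mTEC (-3.51 ± 0.73, adjusted p = 0.0252). Its call was lost without WT cTEC 3 (0.0510), WT mTEC 1 (0.0890) or WT mTEC 2 (0.0594). Gpc3 and Gpc4 rose in KO cTECs by 2.48 ± 0.53 (adjusted p = 0.0153) and 1.35 ± 0.35 (adjusted p = 0.0314), and their differences of -1.61 ± 0.92 (adjusted p = 0.394) and -0.70 ± 0.56 (adjusted p = 0.566) did not pass.

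Other genes with a large negative difference were also high in KO cTEC. Lmo3, which encodes a LIM-only transcriptional cofactor, was at 2.35, 1.99, 1.30 and 0.932 CPM in WT cTECs, 55.9 CPM in KO cTEC, 3.63 and 4.54 CPM in WT mTECs and 7.05 CPM in KO mTEC (-4.31 ± 0.81, adjusted p = 0.0162, and 0.0594 without WT mTEC 2). Sptssb, a small subunit of serine palmitoyltransferase, which starts sphingolipid synthesis, was at 14.9 to 26.7 CPM in WT cTECs, 282 CPM in KO cTEC, 22.4 and 14.6 CPM in WT mTECs and 19.3 CPM in KO mTEC (-3.75 ± 0.54, adjusted p = 0.00476). Sytl3, a synaptotagmin-like gene, was at 4.13 to 5.43 CPM in WT cTECs, 51.2 CPM in KO cTEC, 3.96 and 4.60 CPM in WT mTECs and 4.61 CPM in KO mTEC (-3.32 ± 0.56, adjusted p = 0.0102). KO cTEC stood at 33.9 times the WT mean for Lmo3, 13.97 times for Sptssb and 10.8 times for Sytl3, against 12 times for Npr1.

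Other negative differences rested on low counts in KO mTEC. Baiap3, which encodes a protein of vesicle trafficking, had the largest negative difference of the genes named by size. It was at 7.35, 9.88, 5.43 and 13.8 CPM in WT cTECs, 25.4 CPM in KO cTEC, 3.74 and 5.13 CPM in WT mTECs and 0.452 CPM (5 counts) in KO mTEC. The difference was -4.75 ± 0.95 (adjusted p = 0.0216) and did not pass without WT mTEC 1 (0.0528) or WT mTEC 2 (0.0699). Pskh1, a protein kinase gene, was at 26.9 to 42.9 CPM in WT cTECs, 67.0 CPM in KO cTEC, 12.3 and 14 CPM in WT mTECs and 3.52 CPM (39 counts) in KO mTEC (-2.77 ± 0.49, adjusted p = 0.0126).

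The other genes named for a larger mTEC effect, Zfp9 (6 counts in KO mTEC), Angel1 (10 counts), Evi5l (10 counts) and Zfp354c (18 counts), had differences between -3.82 and -3.13 and lost their call without WT cTEC 3, WT mTEC 1 or WT mTEC 2, at an adjusted p of up to 0.136. Zfp9 also lost it without WT cTEC 2 or 4, and Evi5l without WT cTEC 2. The library of KO mTEC was the smallest of the study, and 7 of the 117 genes had no count in it. Plcd4, a phospholipase, and Cers3, a ceramide synthase, stood at 26.9 and 48.2 CPM in KO cTEC and at 3.34 and 1.45 CPM in KO mTEC, above and below their WT ranges (differences -3.79 ± 0.66, adjusted p = 0.0116, and -3.59 ± 0.74, adjusted p = 0.0244). Plcd4 lost its call without WT mTEC 1 (0.0503), and Cers3 without WT cTEC 2 (0.0515), WT mTEC 1 (0.0800) or WT mTEC 2 (0.0603).

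Effects of opposite sign, each at least 1 on the log2 scale, stood behind 40 of the 1119 positive and 15 of the 117 negative differences, and were found in 453 of all 18163 genes tested. P2rx2, an ATP-gated channel, was at 6.85, 7.82, 8.09 and 17.1 CPM in WT cTECs, 0 in KO cTEC, 9.96 and 9.46 CPM in WT mTECs and 28.7 CPM in KO mTEC (at least 153-fold, adjusted p = 0.00262). Tac1, which encodes the neuropeptide substance P, was at 2.14 to 10.6 CPM in WT cTECs, 0 in KO cTEC, 19.1 and 36.0 CPM in WT mTECs and 60.9 CPM in KO mTEC (at least 71.0-fold, adjusted p = 0.0179). Ltf, the iron-binding protein lactoferrin, was at 37.5 to 132 CPM in WT cTECs, 0.450 CPM (7 counts) in KO cTEC, 28.9 and 19.9 CPM in WT mTECs and 52.2 CPM in KO mTEC (8.68 ± 1.10, adjusted p = 0.00279). In all 3 genes the KO library lay below every WT cTEC library and above both WT mTEC libraries.

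For 13 genes with a positive difference the mTEC effect was the larger. Among these, Rapgef3, Dab2, Prss23, Lhfp and Gsn were named by size, and in each the KO mTEC library stood above both WT mTEC libraries. Gsn, the actin-severing protein gelsolin, was at 975 to 1980 CPM in WT cTECs, 623 CPM in KO cTEC, 318 and 325 CPM in WT mTECs and 868 CPM in KO mTEC (2.72 ± 0.59, adjusted p = 0.0298, lost without WT cTEC 2 or either WT mTEC library at up to 0.101). None of these mTEC effects passed the test on its own. The calls for Rapgef3, Prss23, Dab2 and Lhfp were also lost without WT mTEC 2 (0.0670, 0.0726, 0.0960 and 0.0879). Without WT mTEC 1 Rapgef3, Prss23 and Dab2 lost theirs (0.0745, 0.0704 and 0.0800), and Dab2 and Lhfp did so without WT cTEC 2 (0.0513 and 0.0557) or WT cTEC 3 (0.0515 and 0.0512).

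The summed level of fibroblast markers was 584 and 572 CPM in WT mTECs and 1823 CPM in KO mTEC, and 1128 to 1457 CPM in WT cTECs and 1754 CPM in KO cTEC. Of 16 tested, Dcn, Rgs5 and Vim had a positive and Fbln2, a matrix glycoprotein, a negative difference, which was not called without WT mTEC 1. The share called was 25%, against 6.81% of all genes tested. Dcn (chr10:97479500-97518163), the matrix proteoglycan decorin, was at 813, 557, 739 and 579 CPM in WT cTECs, 573 CPM in KO cTEC, 129 and 99.1 CPM in WT mTECs and 576 CPM in KO mTEC. Its difference was 2.57 ± 0.41 (adjusted p = 0.00817), and its mTEC effect of 2.34 ± 0.28 did not pass (adjusted p = 0.0961). The collagen gene Col1a1 was at 81.6 CPM in KO cTEC and 111 CPM in KO mTEC, against 5.92 to 15.7 CPM in the WT libraries, and its difference did not pass (0.29 ± 0.77, adjusted p = 0.891). The part of fibroblast RNA in the differences of Gsn and Dcn was not tested.

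Markers of other cell types differed between the libraries too. The summed level of dendritic cell and macrophage markers was 185 to 286 CPM in WT cTECs, 13.8 CPM in KO cTEC, 894 and 1170 CPM in WT mTECs and 745 CPM in KO mTEC. Of 14 tested, Lyz2, the lysozyme gene (3.70 ± 0.57, adjusted p = 0.00647), and Zbtb46 (4.24 ± 0.72, adjusted p = 0.0106) had a positive difference and 4 had no count in KO cTEC. B cell markers summed to 71.7 to 120 CPM, 20.5 CPM, 260 and 302 CPM, and 270 CPM in the same order, with Cd79b called among 9. Erythroid markers, mostly haemoglobin, summed to 22.0 to 118 CPM in WT cTECs, 647 CPM in KO cTEC, 47.1 and 97.9 CPM in WT mTECs and 1517 CPM in KO mTEC, with 0 of 7 called. Endothelial markers summed to 57.0 to 74.8 CPM in WT cTECs, 37.9 CPM in KO cTEC, 93.8 and 188 CPM in WT mTECs and 273 CPM in KO mTEC, with Esam and Tek called among 12, but neither without WT mTEC 2 and Tek alone without WT cTEC 3. Thymocyte markers summed to 150 to 251 CPM in WT cTECs, 175 CPM in KO cTEC, 173 and 188 CPM in WT mTECs and 199 CPM in KO mTEC. Among 16 tested, 0 were called positive and 1 negative, Cd1d1, whose call ended whenever a WT library other than WT cTEC 1 was dropped. The fitted difference was above 0 in 14 of the 16, with a median of 2.36. Called were 6.25% of thymocyte, 11.11% of B cell, 14.29% of dendritic cell and macrophage, and 16.67% of endothelial markers. The share over all genes tested was 6.81%. The part of such cells in the differences was not tested.

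**Figure D3:**
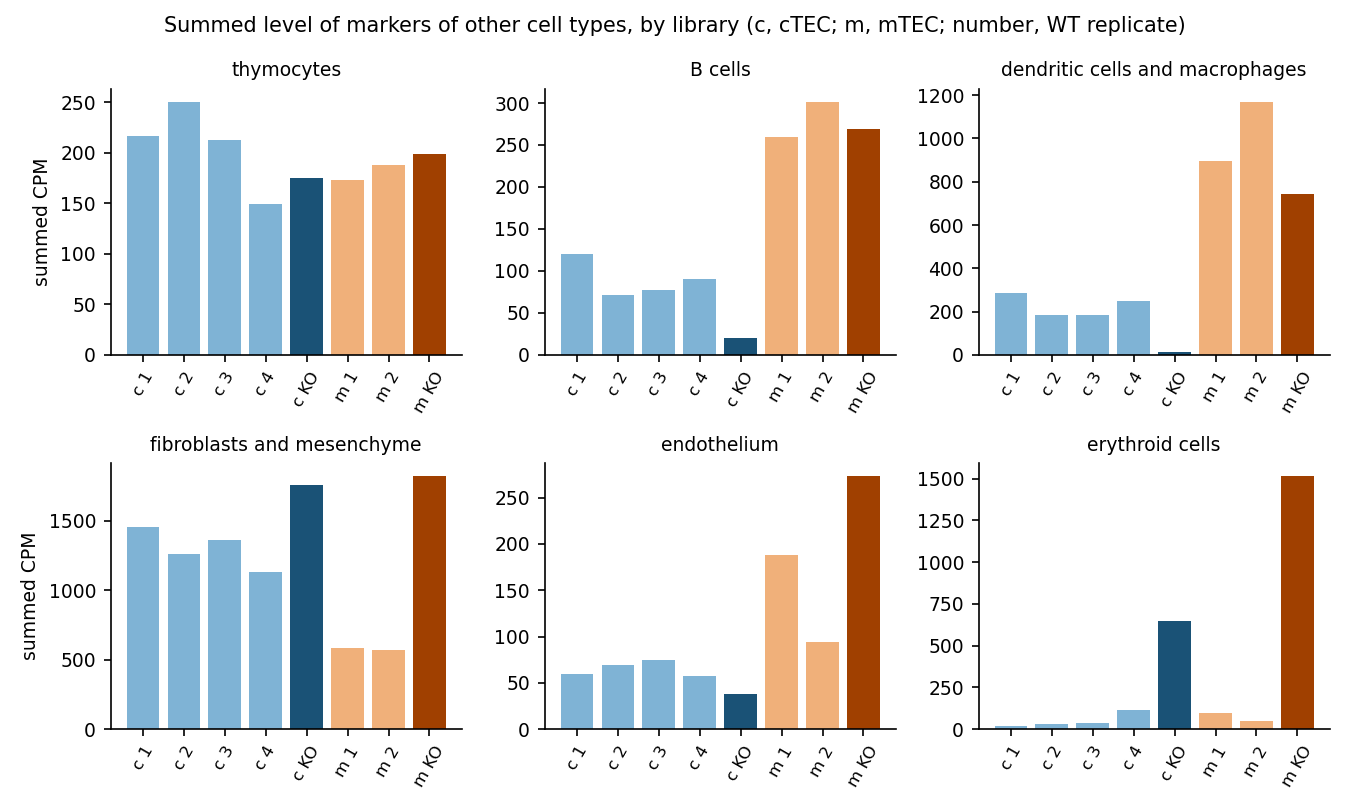
Summed CPM of the marker lists of other cell types, 1 bar per library, from 0. Markers of dendritic cells and macrophages and of B cells are lowest in KO cTEC, while erythroid markers are highest in both KO libraries and fibroblast markers are higher in KO mTEC than in both WT mTEC libraries.

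Genes of antigen presentation were called in 18.75% of the class I and 9.09% of the class II list, against 6.81% of all genes tested. Of 16 MHC class I genes, B2m, H2-K1 and Nlrc5 had a positive difference, and 1 to 4 genes did with 1 library left out, fewest without WT mTEC 2. B2m, the light chain of class I molecules, was at 6982, 4399, 6097 and 5849 CPM in WT cTECs, 985 CPM in KO cTEC, 11591 and 9891 CPM in WT mTECs and 10503 CPM in KO mTEC (2.53 ± 0.43, adjusted p = 0.0104, and 0.0554 without WT mTEC 2). Nlrc5, which activates class I genes, differed by 3.04 ± 0.36 (adjusted p = 0.0019). H2-K1 differed by 1.48 ± 0.35 (adjusted p = 0.0402) and lost its call without WT cTEC 2 or 3 or WT mTEC 1 or 2, at up to 0.170. Of 11 class II genes 1 was called, the lysosomal protease Ctss (4.70 ± 0.78, adjusted p = 0.00915).

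The share called was 11.5% of interferon-stimulated genes, 31.6% of NF-kB and inflammatory genes, 13.04% of p53 targets and 20% of the integrated stress response, against 6.81% of all genes tested. Of 26 interferon-stimulated genes, 3 had a positive difference, among them the chemokine Cxcl9 (5.54 ± 0.51, adjusted p = 0.000815) and the nucleic acid sensor Zbp1 (2.80 ± 0.28, adjusted p = 0.00112), and the count was 5 without WT cTEC 1 and 8 by DESeq2. Of 19 NF-kB and inflammatory genes, 5 had a positive difference, among them the chemokine Ccl20 (9.34 ± 0.92, adjusted p = 0.00102), and 1, the NF-kB subunit gene Nfkb1, a negative one that was lost when any single WT library other than WT cTEC 1 was left out. Of 23 p53 targets, 3 had a positive difference, among them the cell cycle inhibitor Cdkn1a, which was at 172, 243, 186 and 231 CPM in WT cTECs, 11.1 CPM in KO cTEC, 392 and 250 CPM in WT mTECs and 303 CPM in KO mTEC (4.15 ± 0.47, adjusted p = 0.00167). That count was 5 without WT cTEC 1. Of 20 genes of the integrated stress response, 3 had a positive difference, led by the hormone gene Fgf21 (6.89 ± 0.91, adjusted p = 0.00336), and 1, the serine synthesis gene Phgdh, a negative one that was not called with WT cTEC 2, WT cTEC 3 or WT mTEC 2 left out. Unfolded protein response genes had 0 of 17 called.

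Lists of growth and basic metabolism held no call, against 6.81% called over all genes tested. Of 22 genes of G2 and mitosis, 0 were called by edgeR, DESeq2 or limma, though all 22 fitted differences were below 0 with a median of -1.67. Without WT cTEC 1, 14 of the 22 were called with a negative difference. The mitotic kinase gene Plk1 was at 9.27, 3.25, 5.10 and 5.59 CPM in WT cTECs, 48.7 CPM in KO cTEC, 10.1 and 12.3 CPM in WT mTECs and 20.2 CPM in KO mTEC (-2.22 ± 0.75, adjusted p = 0.143). S phase genes (21), cytosolic ribosomal proteins (22), and mitochondrially encoded (13) and nuclear (26) genes of oxidative phosphorylation had 0 calls. Their fitted differences were below 0 in all 22 ribosomal genes (median -0.38) and in 17 of the 21 S phase genes. They were above 0 in 10 of the 13 mitochondrially encoded and 12 of the 26 nuclear genes. Of 24 immediate-early genes 0 were called by edgeR and DESeq2 called 1, though all 24 fitted differences were above 0 with a median of 2.15. Without WT cTEC 1, the library in which these genes were low, 16 were called with a positive difference.

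**Figure D4:**
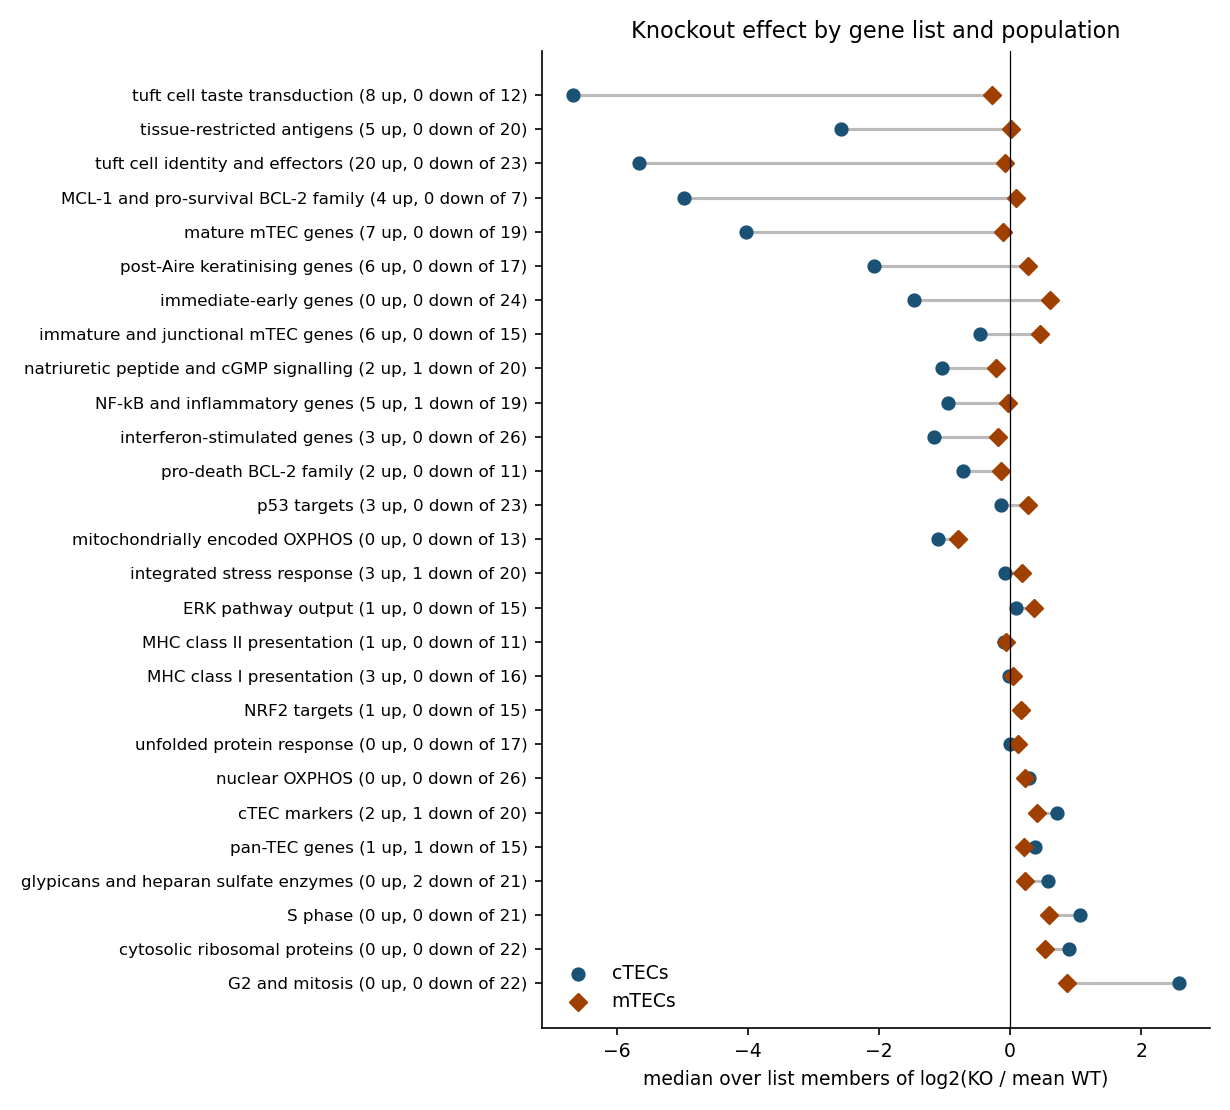
Median log2 ratio of KO to mean WT over the tested members of each list, in cTECs and in mTECs, with levels below 3 counts set to 3 counts. Marker lists of other cell types and the groups picked after their values were seen are not drawn. The tuft, mature mTEC and tissue antigen lists lie far below 0 in cTECs and near 0 in mTECs, whereas G2 and mitosis lies above 0 in both.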

How the data were processed

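RNA of sorted thymic epithelial cells was sequenced in 8 libraries. The deposited per-sample files hold raw read counts per Entrez gene that the authors made with featureCounts on mm10, per the submitters' processing notes. For the aligner, the annotation and tool versions the sources used here give nothing, and 8 columns of a series-wide table that match no sample title were not used. Totals were 11516780 to 19171953 counts, and differences of a few counts are not detectable at this depth.

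Genes with at least 1 CPM in at least 2 libraries were kept (18163 of 27179). Symbols and coordinates came from RefSeq GRCm38.p6 and matched 25275 IDs (93%). edgeR 4.0.16 in R 4.3.3 fitted 1 mean per group (TMM scaling, robust quasi-likelihood F test, 4 residual degrees of freedom, two-sided). Benjamini-Hochberg adjusted p under 0.05 over all genes tested made a call, and errors of log2 differences are SE. Alternatives were other scaling and filters, DESeq2 1.42.0, limma 3.58.1 (voom, and trend with a prior count of 2), each WT library left out, WT cTEC libraries in doubt left out, and a replicate block. A gene with 0 counts in a KO library was set to 3 counts for bounds. Intervals are exact Poisson intervals at 95%, and they and the bounds cover counting error only.

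Named genes were the 4 given ones (Mcl1, Gnat3, Npr1, Gpc6), and, among genes averaging 3 or more in log2 CPM, the 10 of largest difference in each direction, the 6 in each direction with the larger effect in mTECs and the 4 with opposite effects of at least 1. Up to 3 called genes of smallest p per list were added. A gene that the rule names is not reported here. Other genes named were chosen after their values were seen. The comparison and the lists were chosen with earlier results of these data known. On simulated counts for 17629 genes, the test of the difference recovered 2% of genes changed 2-fold, 30% at 4-fold, 54% at 8-fold and 88% at 16-fold, 50 genes each, with 6 false calls. The changes were set in KO mTEC alone, in genes above a minimum mean level, with the same mean in all groups otherwise. Changes in KO cTEC, where most called genes had their larger effect, were not simulated.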

Additional observations from a re-analysis of the deposited data

Results flagged for a closer look

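In some genes 1 WT cTEC library stood apart from the other 3, by a gap that chance alone gives in about 1 in 20 groups. The highest library stood apart for Gpc6 (9.06 CPM), P2rx2 (17.11 CPM), Pmaip1 (147.2 CPM), Ctss (100.9 CPM) and the thymocyte list gene Cd1d1 (70.27 CPM). The lowest library did so for Hepacam2 (120.5 CPM), Dclk1 (146.0 CPM) and Tas1r1 (4.28 CPM). For Gpc6 that library was WT cTEC 1, and KO cTEC was still above it.

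A test of the difference between the KO effects is the comparison of the report, so every called gene meets the criterion of a difference between groups. Given here are the 4 genes that mark the comparison and the genes with opposite effects. The differences were 3.961 for Mcl1, -3.865 for Npr1, -4.342 for Gpc6, -4.748 for Baiap3, -3.789 for Plcd4, -3.593 for Cers3 and 8.681 for Ltf, on the log2 scale. With 3 counts in place of 0 in KO cTEC, the lower bounds on the log2 scale were 10.14 for Gnat3, 9.922 for Chga, 7.258 for P2rx2 and 6.15 for Tac1.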

How the results depend on the processing

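The count of genes with a difference (1236, of which 1119 positive and 117 negative) was 1205 with other size factors, 1178 without a filter, 1201 with filterByExpr and 1339 by limma-trend. It moved to 2050 (1795 and 255) by DESeq2, 117 (107 and 10) by limma-voom, 4110 (3310 and 800) without WT cTEC 2, 3 and 4, and 803 (22 negative) with only WT cTEC 1 and 4 of that group. With 1 WT library left out it ranged from 649 to 1849 (622 to 1601 positive, 27 to 248 negative). Without WT cTEC 2, 3 and 4 only the WT mTEC pair gave a spread. For KO against WT in mTECs (0 called), DESeq2 gave 139, the fit without WT cTEC 2, 3 and 4 gave 734, and leaving out 1 library 0 to 7. In cTECs (3179 called), the values were 1735 by limma-voom, 6078 without WT cTEC 2, 3 and 4, and 1965 with WT cTEC 1 and 4 only. Between the WT populations (4912) they were 964 with WT cTEC 1 and 4 only and 603 to 6762 with 1 library left out, and between the KO populations (4679) 2435 by limma-voom and 9136 without WT cTEC 2, 3 and 4. The causes were not tested.

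Replicate numbers were not taken as a pairing: deviations of same-numbered WT libraries correlated at -0.152 and -0.042. With the replicate block 1227 genes were called (1164 positive, 63 negative), 955 of them among the 1236. The block gave 2 calls in mTECs and 2079 between the WT populations.

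None of the 1236 calls changed sign under any alternative run. Among uncalled genes the sign of the difference changed for Pde6d (-0.03998 to 0.09237 with 1 library left out, with -0.01171 and -0.01991 between), Col1a1 (-0.03153 to 0.6983, with -0.02653 between, -0.3614 without WT cTEC 2, 3 and 4, and -0.3742 with WT cTEC 1 and 4 only), Ctsl (-0.1186 to 0.6092, with -0.02234 between) and Psmb11 (0.3924 without WT cTEC 2, 3 and 4, and 0.0537 with the replicate block). Of 104 called genes among those examined singly, 67 kept the call without each library in turn and 37 lost it at least once, 36 of these without WT mTEC 2 and 29 without WT mTEC 1. By limma-voom 84 of the 104 lost the call.

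Each KO group is 1 library, so none was left out and variation between KO animals is unknown. On simulated counts with changes set in KO mTEC alone, 30% of 4-fold differences were recovered.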

Other observations

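Further groups of genes that were picked after their values were seen, and so carry no test as groups, held calls in the same direction. Of 10 Skint genes, a family of immunoglobulin-like proteins of thymic epithelium and skin, 8 had a positive difference and 0 a negative one. The share called was 80%, against 6.81% of all genes tested. Skint1, which supports the selection of epidermal gamma-delta T cells, was at 80.7, 47.9, 62.0 and 55.2 CPM in WT cTECs, 0 in KO cTEC, 271 and 258 CPM in WT mTECs and 205 CPM in KO mTEC (at least 248-fold, edgeR adjusted p = 0.000342). The summed level of the family was 497 to 877 CPM in WT cTECs, 3.28 CPM in KO cTEC, 2479 and 2232 CPM in WT mTECs and 1744 CPM in KO mTEC.

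Of 25 intestinal epithelial genes, 15 had a positive difference and 0 a negative one (60% called), and 19 of the 25 had no count in KO cTEC. Over all genes tested, 6.81% were called and 10.96% had no count in KO cTEC. Cdx1, an intestinal homeobox factor, was at 100, 57.2, 37.5 and 65.1 CPM in WT cTECs, 0 in KO cTEC, 247 and 367 CPM in WT mTECs and 311 CPM in KO mTEC (at least 342-fold, edgeR adjusted p = 0.00167). Of 14 neuroendocrine genes, 7 had a positive difference, among them Chga and Tac1, and 0 a negative one (50% called). Of 14 small leucine-rich proteoglycans, Dcn and Bgn had a positive difference (14.29% called, a smaller share than in the other groups here). Bgn, biglycan, was at 9.76 to 15.2 CPM in WT cTECs, 15.6 CPM in KO cTEC, 5.06 and 4.86 CPM in WT mTECs and 40.9 CPM in KO mTEC (2.66 ± 0.54, edgeR adjusted p = 0.0226, but 0.0817 and 0.0847 without WT mTEC 1 and 2). The part of stromal RNA in the differences of Dcn and Bgn was not tested.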
